A study of Mus musculus with 14 samples.

Results

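The immediate early genes described here are 10 genes named as a list: Fos, Fosb, Jun, Junb, Egr1, Atf3, Ier2, Nr4a1, Dusp1 and Zfp36. They were found by their symbols in 2 tables of mouse heart RNA sequencing, and where a symbol had several transcript rows the row with the highest mean was kept. In the table of the vector experiment 9 of the 10 genes were measured, among 13219 symbols, and Fosb was not listed. In the table of the knock-out experiment, which lists 1230 symbols, 0 of the 10 genes appeared.

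The study asked how CTRP9, a secreted glycoprotein encoded by C1qtnf9, affects the heart during high-fat feeding. In the vector experiment male C57BL/6J mice with intact C1qtnf9 received an adeno-associated virus of serotype 9 into the tail vein at 7 to 9 weeks of age, at a dose of 1e12 viral genomes. The AAV-CTRP9 virus carried mouse C1qtnf9 (4 hearts) and the AAV-Luc control virus carried Renilla luciferase (3 hearts), both driven by the promoter of troponin T and thus in cardiomyocytes. Mice of both groups ate a diet with 60% of its energy from fat for 12 weeks and were fasted for 6 h before they were killed. In the knock-out experiment 4 hearts of C1qtnf9 knock-out (KO) mice were compared with 3 hearts of wild-type (WT) littermates after the same diet. The hearts of the vector experiment are named by their labels: Luc_614, Luc_615 and Luc_624 for AAV-Luc, and CTRP9_609, CTRP9_610, CTRP9_611 and CTRP9_620 for AAV-CTRP9. The titles of the 3 AAV-Luc samples read CTRP9_614, CTRP9_615 and CTRP9_624, whereas their treatment labels, their descriptions and the column names of the table give the luciferase virus, and the groups follow the treatment labels.

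Immediate early genes are transcribed within minutes of a stimulus, without new protein synthesis, because the factors that switch them on are already present in the cell and need only be activated. Serum response factor with its partners, and CREB bound to cAMP response elements, are the best known of these factors, and the MAP kinases and protein kinase A act upstream of them. In the heart, stretch, adrenergic stimulation, ischaemia and the handling of the tissue itself are known to raise these transcripts, most of which are short-lived. The list spans the AP-1 transcription factors (Fos, Fosb, Jun, Junb and their relative Atf3), the zinc finger factor Egr1, the orphan nuclear receptor Nr4a1, the nuclear protein Ier2, and a pair of genes that end the response. Of that pair, Dusp1 encodes a phosphatase that inactivates MAP kinases, and Zfp36 encodes tristetraprolin, which binds AU-rich elements and speeds the decay of messenger RNAs.

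To show what the promoters of these genes hold, the 250 bases before the transcription start were taken from RefSeq (build GRCm38.p6), where 8 of the 10 genes were matched. Ier2 and Egr1 were not matched. The half-site of the cAMP response element, searched as TGACG or, on the other strand, CGTCA, was present in 17.8% of 32851 promoter windows of this length. Among the 7 measured genes with a window it was present in 5, namely Fos, Junb, Atf3, Nr4a1 and Dusp1, and the window of Fosb also held 1 copy. Jun and Zfp36 had none. The GC content of the matched windows ran from 58.4% for Fos to 74.4% for Nr4a1. No background of equal GC content was searched, so the part of base composition in these counts was not tested. The sequences of 5 genes are printed because their transcripts ranged from the most to the least variable between hearts in the results that follow. Each reads 5′ to 3′ on the gene's own strand, and the capitals mark the half-sites.
Fos: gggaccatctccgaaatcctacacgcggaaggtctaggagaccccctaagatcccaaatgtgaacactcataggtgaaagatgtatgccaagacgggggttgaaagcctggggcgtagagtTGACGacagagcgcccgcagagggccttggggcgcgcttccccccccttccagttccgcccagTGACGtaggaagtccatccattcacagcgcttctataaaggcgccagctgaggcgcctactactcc
Nr4a1: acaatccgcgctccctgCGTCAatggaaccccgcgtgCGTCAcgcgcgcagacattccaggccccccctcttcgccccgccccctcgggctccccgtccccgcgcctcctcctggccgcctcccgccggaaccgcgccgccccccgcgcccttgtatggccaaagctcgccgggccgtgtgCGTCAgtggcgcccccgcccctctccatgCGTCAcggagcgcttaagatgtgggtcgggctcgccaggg
Atf3: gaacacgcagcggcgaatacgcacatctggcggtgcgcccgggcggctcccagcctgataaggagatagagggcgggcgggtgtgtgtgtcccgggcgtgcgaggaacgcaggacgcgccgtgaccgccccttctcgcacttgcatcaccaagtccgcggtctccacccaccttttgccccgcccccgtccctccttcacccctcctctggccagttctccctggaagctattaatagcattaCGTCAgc
Dusp1: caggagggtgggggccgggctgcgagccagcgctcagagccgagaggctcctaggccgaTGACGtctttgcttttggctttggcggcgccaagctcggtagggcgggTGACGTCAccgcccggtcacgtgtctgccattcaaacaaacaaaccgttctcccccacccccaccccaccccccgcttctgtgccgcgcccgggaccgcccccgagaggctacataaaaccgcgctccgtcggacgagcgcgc
Jun: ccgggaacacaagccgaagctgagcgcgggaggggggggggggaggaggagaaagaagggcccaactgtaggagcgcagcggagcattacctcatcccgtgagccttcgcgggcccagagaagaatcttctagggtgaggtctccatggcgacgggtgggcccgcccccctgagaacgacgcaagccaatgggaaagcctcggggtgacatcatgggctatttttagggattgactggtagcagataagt
These windows lie at chr12:85473640-85473889 (plus strand) for Fos, chr15:101266596-101266845 (plus strand) for Nr4a1, chr1:191183334-191183583 (minus strand) for Atf3, chr17:26508473-26508722 (minus strand) for Dusp1 and chr4:95052223-95052472 (minus strand) for Jun. The windows end at the start that RefSeq gives. For Atf3 and Zfp36 this start lies 34706 and 1025 bases inside the longer transcript counted here, for Dusp1 47 bases inside, and for Fos, Jun and Nr4a1 it is the start of the counted transcript. Nr4a1 held 4 half-sites, Dusp1 3, Fos 2 and Atf3 1. The full palindrome TGACGTCA, in which 2 half-sites overlap, was found in Dusp1 and in 1.55% of all windows. The CArG box, to which serum response factor binds, was found in Zfp36 and in 1.47% of all windows. The AP-1 site, searched as TGACTCA or TGAGTCA, and the EGR site, searched as GCGTGGGCG or CGCCCACGC, were in 4.46% and 0.536% of all windows and in 0 of the 7. A match of letters is a description of the sequence and not evidence of binding. The lack of a match covers only these 250 bases and the searched forms of each site, and Egr1 and Ier2 were not searched.

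The scaled library totals of the vector experiment ranged from 23626917 to 30262264 reads, and those of the knock-out experiment from 14978278 to 18959587 reads. Luc_614 stood apart from the other hearts. The Spearman correlation across genes between the GC content of a transcript and its deviation from the mean was 0.52 in Luc_614. In the other 6 hearts it was between -0.27 and -0.11, so results that rest on Luc_614 are given with and without it. Removing the GC and length trend did not raise the immediate early genes in Luc_614. Each measured one moved down there, with log2 shifts from -0.16 for Junb to -0.04 for Atf3. With the trend removed from each library, 0 of them passed the adjusted threshold in the comparison of the groups. The cause of their levels in Luc_614 was not tested. C1qtnf9 itself was at 69.9 ± 27.5 CPM, the unit of reads scaled to library size, in AAV-CTRP9 hearts (SD, n = 4) and at 20.3 ± 5.29 CPM in AAV-Luc hearts (SD, n = 3), a log2 difference of 1.73 with no overlap (limma, adjusted p = 0.106). In the knock-out experiment it had 3 reads in the 4 KO hearts together and 481 to 498 reads in each WT heart. All 8 cardiomyocyte markers were measured, and the AAV-CTRP9 and AAV-Luc hearts did not overlap in 3 summed marker lists. The cardiomyocyte sum was 20948 to 21642 CPM in AAV-CTRP9 and 17046 to 20181 CPM in AAV-Luc hearts. The fibroblast sum (8 of 8 markers) was 368 to 414 against 439 to 520 CPM, and the leukocyte sum (6 of 8 markers, without Cd3e and Cd79a) was 57.3 to 67.9 against 88.8 to 93.2 CPM. The groups overlapped in the endothelial, mural, neutrophil (1 of 8 markers), erythroid and mitochondrially encoded sums. Of all single symbols, 4.54% were lower and 4.49% higher in AAV-CTRP9 hearts without overlap.

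The 9 measured genes differed widely in level. Per kilobase of transcript, Dusp1 was the most abundant, with 28.6 ± 5.27 CPM per kilobase (SD, n = 7 hearts), and it was above Nr4a1 in 7 of 7 hearts. Below it came Nr4a1 with 13.8 ± 10.7, Jun with 11.8 ± 2.13, Junb with 9.78 ± 1.82, Zfp36 with 9.68 ± 2.98 and Egr1 with 8.48 ± 4.75 CPM per kilobase. The ranges of neighbours in this middle group overlapped: Nr4a1 was above Jun in 3 of 7 hearts, Junb above Zfp36 in 4 and Zfp36 above Egr1 in 4. Ier2 followed with 5.495 ± 0.890 CPM per kilobase, above Fos in 7 of 7 hearts with no overlap of their ranges. Fos, at 1.44 ± 1.05, and Atf3, at 1.07 ± 0.616 CPM per kilobase, were the least abundant, and their ranges overlapped.

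The genes rose and fell together from heart to heart, and this variation cut across the treatment groups. Luc_615 had the highest value for 8 of the 9 genes, and CTRP9_611 for the remaining one, Ier2. CTRP9_609 and CTRP9_620 were each lowest for 4 genes, and Luc_614 was lowest for Junb. The summed level of the 9 genes was 163, 347 and 280 CPM in Luc_614, Luc_615 and Luc_624. In CTRP9_609, CTRP9_610, CTRP9_611 and CTRP9_620 it was 151, 214, 272 and 147 CPM. Both groups thus held hearts with high and hearts with low levels.

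**Figure D1:**
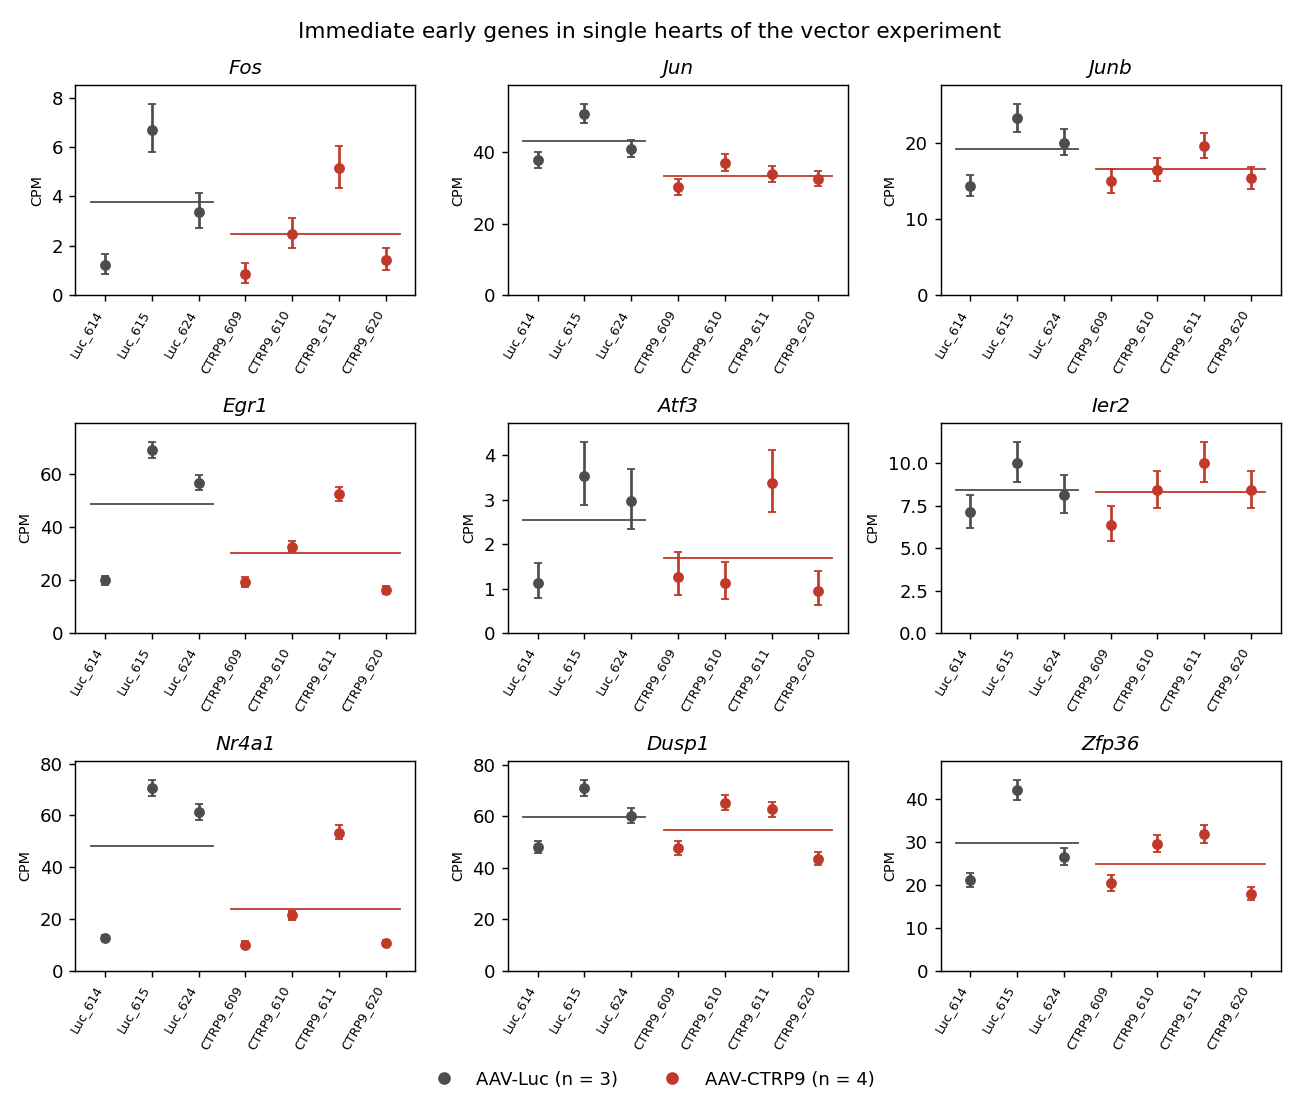
Level of each immediate early gene in single hearts (vertical axis, CPM, starting at 0; horizontal axis, hearts; points, one heart each with the 95% Poisson interval of its reads; lines, group means; grey, AAV-Luc, n = 3; red, AAV-CTRP9, n = 4). Luc_615 was highest for 8 of the 9 genes, and CTRP9_609 or CTRP9_620 was lowest for 8.

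Nr4a1 (ENSMUST00000023779, chr15:101266846-101274795) varied the most relative to counting error. It was at 12.6, 70.6 and 61.3 CPM in Luc_614, Luc_615 and Luc_624, and at 10.03, 21.5, 53.4 and 10.6 CPM in CTRP9_609, CTRP9_610, CTRP9_611 and CTRP9_620. The hearts fell into a set of 3 with at least 53.4 CPM and a set of 4 with at most 21.5 CPM, and each set held hearts of both groups. The highest heart exceeded the lowest 7.04-fold (95% counting interval 6.15 to 8.09). The SD within groups was 1.23 on the log2 scale, where the counting of reads alone gives 0.06, and it was larger than that of 99.7% of all symbols.

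Fos (ENSMUST00000021674, chr12:85473890-85477273), the partner of the Jun proteins in AP-1, spanned the largest range but rested on few reads. It was at 1.22, 6.71 and 3.38 CPM in the AAV-Luc hearts Luc_614, Luc_615 and Luc_624. In the AAV-CTRP9 hearts CTRP9_609, CTRP9_610, CTRP9_611 and CTRP9_620 it was at 0.846, 2.48, 5.16 and 1.41 CPM. The highest value, 188 reads in Luc_615, exceeded the lowest, 20 reads in CTRP9_609, 7.93-fold (counting interval 4.99 to 13.3). As with Nr4a1, Luc_615 and CTRP9_611 were the highest hearts of their groups.

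Egr1 (ENSMUST00000064795, chr18:34859823-34864984) was at 19.9, 69.1 and 56.8 CPM in Luc_614, Luc_615 and Luc_624, and at 19.3, 32.5, 52.6 and 16.1 CPM in CTRP9_609, CTRP9_610, CTRP9_611 and CTRP9_620. These levels had the same order as those of Nr4a1 but for the lowest pair of hearts, which changed places. The highest heart was 4.30-fold above the lowest (counting interval 3.88 to 4.77), and the SD within groups was 0.86 (log2).

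Atf3 (ENSMUST00000195117, chr1:191170296-191218039), a stress-induced factor of the ATF family, was at 1.12, 3.53 and 2.96 CPM in Luc_614, Luc_615 and Luc_624. In CTRP9_609, CTRP9_610, CTRP9_611 and CTRP9_620 it was at 1.27, 1.13, 3.37 and 0.954 CPM. The same 3 hearts as for Nr4a1 were high, at 2.96 CPM or more, and the other 4 were at 1.27 CPM or less. CTRP9_610, which was intermediate for Fos and Egr1, was among the low hearts here. These values rest on 27 to 99 reads a heart, and the small gene Gm24748 overlaps Atf3 on the other strand.

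The feedback genes varied less. Zfp36 (ENSMUST00000051241, chr7:28376784-28380253) was at 21.0, 42.0 and 26.4 CPM in Luc_614, Luc_615 and Luc_624, and at 20.4, 29.5, 31.7 and 17.9 CPM in CTRP9_609, CTRP9_610, CTRP9_611 and CTRP9_620. Dusp1 (ENSMUST00000025025, chr17:26505590-26508519) was at 48.1, 71.1 and 60.2 CPM in the AAV-Luc hearts, and at 47.7, 65.3, 62.7 and 43.5 CPM in the AAV-CTRP9 hearts, in the same order. Their highest hearts were 2.34-fold and 1.63-fold above their lowest, and both had CTRP9_620 lowest and Luc_615 highest. Gm44710 overlaps Zfp36 on the other strand.

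Junb (ENSMUST00000064922, chr8:84976910-84978718) was at 14.3, 23.2 and 20.0 CPM in Luc_614, Luc_615 and Luc_624, and at 14.9, 16.4, 19.6 and 15.3 CPM in CTRP9_609, CTRP9_610, CTRP9_611 and CTRP9_620. Ier2 (ENSMUST00000060427, chr8:84661331-84662852) was at 7.14, 10.03 and 8.12 CPM and at 6.39, 8.42, 10.03 and 8.41 CPM in the same hearts. The highest heart was 1.62-fold above the lowest for Junb and 1.57-fold for Ier2, and both genes had an SD of 0.26 (log2) within groups.

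Jun (ENSMUST00000107094, chr4:95049034-95052222) was the steadiest, with an SD within groups of 0.17 (log2), close to the middle of all symbols (49.3% of them had a smaller one). It was at 37.8, 50.6 and 40.9 CPM in Luc_614, Luc_615 and Luc_624, and at 30.1, 37.0, 33.8 and 32.5 CPM in CTRP9_609, CTRP9_610, CTRP9_611 and CTRP9_620. All AAV-CTRP9 hearts were below all AAV-Luc hearts, as in 4.54% of all symbols, and the closest pair was CTRP9_610 with Luc_614. The antisense gene Junos overlaps Jun. The libraries were strand-specific, but the sources used here do not state whether the counting used strand, so a share of reads from Junos was not tested.

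**Figure D2:**
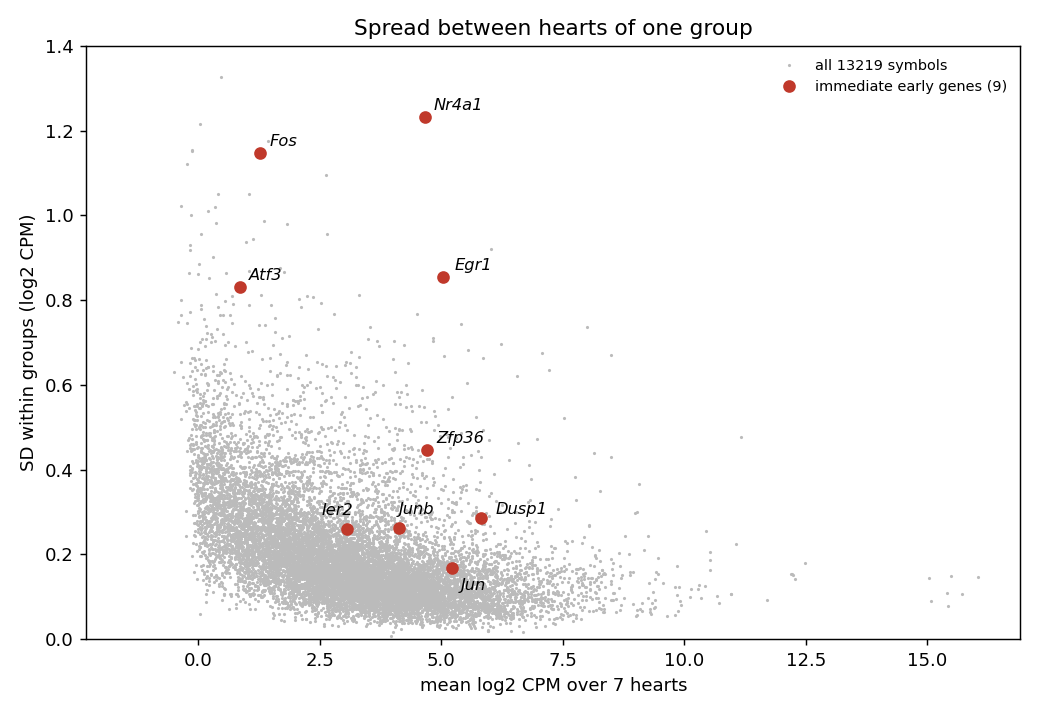
Spread between hearts of one group (vertical axis, SD within groups of log2 CPM) against mean level (horizontal axis, mean log2 CPM over 7 hearts) for all 13219 symbols (grey; 32 lie above the axis) and the 9 immediate early genes (red). Nr4a1, Fos, Egr1 and Atf3 lie far above symbols of similar level, at 0.83 to 1.23, and Jun lies within the cloud at 0.17.

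Whether the genes move together was measured over the 7 single hearts with Pearson's r of log2 CPM for each of the 36 pairs, with exact permutation p-values over 5040 pairings. All 36 pairs had a positive r, with a median of 0.862 and a range from 0.527 to 0.990. For 17 of the 36 pairs the exact two-sided p passed 0.05 after Benjamini-Hochberg adjustment. With Spearman's rho the median was 0.786 (0.286 to 0.964), and 0 of 36 pairs had an adjusted p below 0.05, the smallest being 0.05. Across the pairs of all symbols in the same hearts the median r was -0.00, with quartiles of -0.34 and 0.35, and 1.58% of pairs exceeded the median of the immediate early genes. The points of every pair share the same 7 libraries.

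The common movement was also present within the groups. With each gene expressed as its deviation from the group mean, the median r of the 36 pairs was 0.858 (0.470 to 0.989), close to the value over all hearts. Without Luc_614 the median was 0.846 and without Luc_615, the heart with the highest levels, it was 0.778. When for each pair the 2 hearts farthest from the median of the first gene were left out, 35 of 36 r values were still positive, with a median of 0.82. The exception was Jun with Ier2, at -0.52. Atf3 and Nr4a1 had 2 separate sets of hearts, of 4 and 3, and no correlation is given within sets of this size. Among the 21 pairs without these genes the median r was 0.830, and 10 of the 21 passed the adjusted exact test.

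The closest pair was Egr1 with Nr4a1, with r = 0.990 (exact permutation p = 0.000992, adjusted p = 0.0179) and rho = 0.964 (exact permutation p = 0.00278, adjusted p = 0.05). Without the 2 farthest hearts its r was 0.993. The feedback genes Dusp1 and Zfp36 followed with r = 0.967 (exact permutation p = 0.000595, adjusted p = 0.0179), rho = 0.964 and r = 0.932 without 2 hearts. Fos moved with its AP-1 partner Junb at r = 0.942 (exact permutation p = 0.00278, adjusted p = 0.0226), but with Jun at r = 0.703 (exact permutation p = 0.0714, adjusted p = 0.0887), which became 0.0851 without 2 hearts. Within groups the r of Fos with Jun was 0.795, and without Luc_614 it was 0.781. Leaving out the 2 hearts farthest from the median of the first gene narrows the range of values, which tends to lower r. The other pairs of Jun also fell without 2 hearts, to between -0.52 and 0.44. The weakest pair was Jun with Ier2, with r = 0.527 (exact permutation p = 0.226).

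Jun was the member that followed the others least. Its r with the mean of the other 8 genes was 0.722, and that of Ier2 was 0.778. For the remaining genes this value ran from 0.873 for Atf3 to 0.9748 for Fos. In single pairs the order of Jun and Ier2 depended on Luc_614. Without that heart Jun had a higher r than Ier2 with each of the remaining genes except Fos. With Egr1 the r was then 0.794 for Jun and 0.671 for Ier2, and with Fos 0.781 and 0.898. A difference between these values was not tested.

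**Figure D3:**
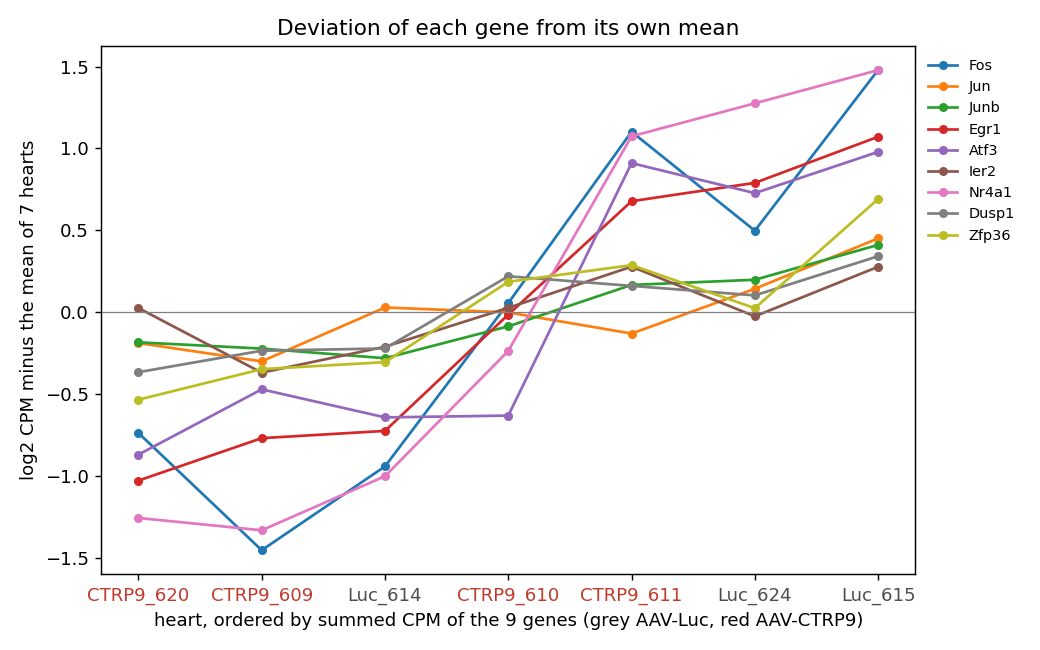
Deviation of each immediate early gene from its own mean over 7 hearts (vertical axis, log2 CPM), with hearts on the horizontal axis ordered by the summed level of the 9 genes, from 147 CPM in CTRP9_620 to 347 CPM in Luc_615. The lines rise together from left to right, steeply for Fos, Nr4a1, Egr1 and Atf3 and least for Jun and Ier2, and hearts of both groups stand on either side.

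**Figure D4:**
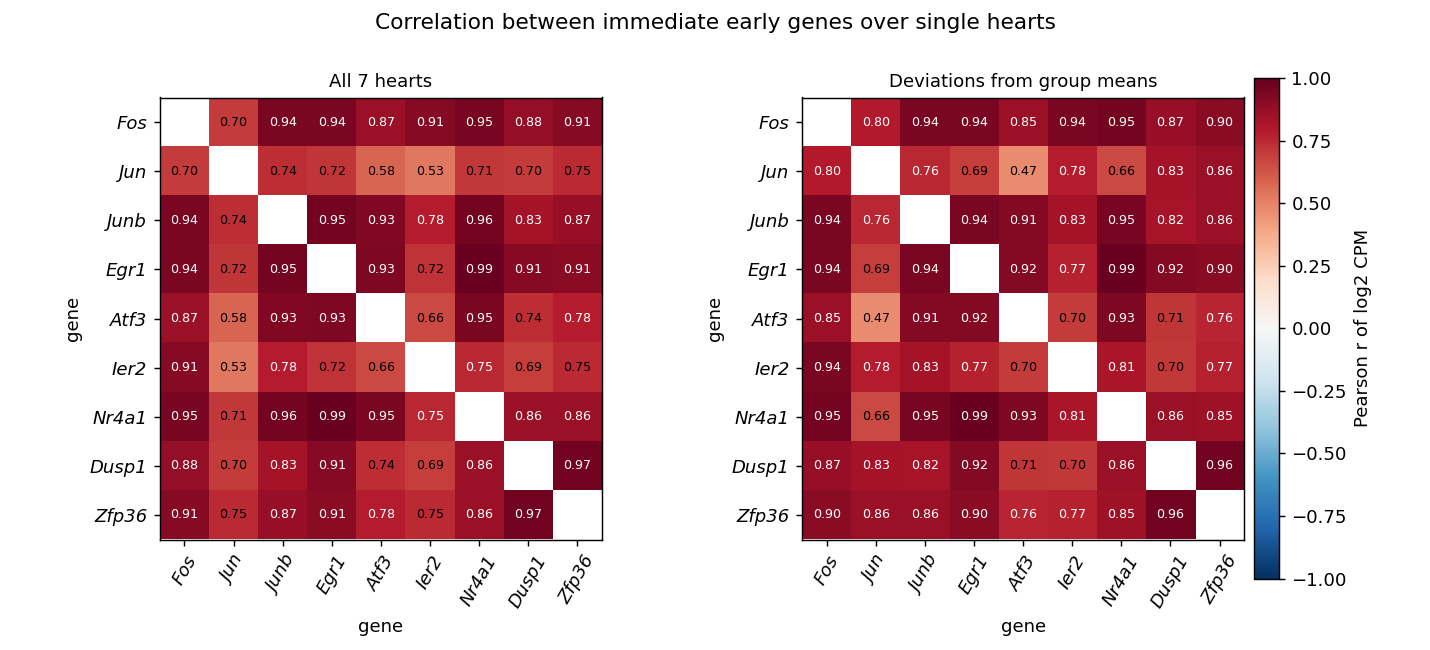
Pearson's r of log2 CPM for each of the 36 pairs of immediate early genes (rows and columns, genes; colour, r from -1 to 1), over all 7 hearts (left) and for deviations from the group means (right). The lowest value is 0.527 (Jun with Ier2) on the left and 0.470 (Jun with Atf3) on the right.

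Summed cell type markers were also set against the genes. The r of a summed marker list with the mean of the 9 standardised genes ran from -0.44 for the endothelial list to 0.52 for the erythroid list, over the same 7 hearts. The erythroid sum was 724 CPM in Luc_624 and 118 to 272 CPM in the other hearts. C1qtnf9 itself had an r of -0.65 with this mean, which includes its difference between the groups and was not tested. For the cardiomyocyte list it was 0.11, for the fibroblast list 0.33 and for the leukocyte list 0.49. The sum of 6 mitochondrially encoded transcripts had an r of 0.48. In tissue samples, more cells that express a gene and more RNA per cell cannot be told apart.

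The 10 other symbols that followed the mean of the 9 genes most closely, of 13053 with at least 1 CPM, had r values from 0.934 to 0.982. Over all these symbols the median r was -0.02 (quartiles -0.35 and 0.28), and the lowest was -0.98. The 10 symbols were picked by r itself over 7 hearts, so their high values follow from the selection and are no test. The list was Senp5, Myocd, Btg2, Sik1, Srsf3, Adprm, Actg1, Frmd5, Azin1 and Cstf3. Btg2, an antiproliferative gene, and Sik1, a kinase induced by cAMP, are immediate early genes themselves. Sik1 was at 15.1, 39.5 and 28.7 CPM in Luc_614, Luc_615 and Luc_624, and at 11.9, 17.7, 21.9 and 12.7 CPM in CTRP9_609, CTRP9_610, CTRP9_611 and CTRP9_620 (r = 0.963). Btg2 was at 11.8, 23.9 and 18.3 CPM and at 8.97, 13.1, 20.2 and 11.3 CPM in the same hearts (r = 0.974). Myocd, the gene of the serum response factor coactivator myocardin, had the same 3 hearts lowest and the same 4 highest as Sik1 but a much narrower range, from 28.4 to 32.5 CPM (r = 0.979).

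Against this spread, no immediate early gene differed between AAV-CTRP9 and AAV-Luc hearts after adjustment over all genes. In limma, 0 of the 9 genes had an adjusted p below 0.05, beside 0.0151% of all 13219 symbols (2 symbols). On the recovered reads edgeR also called 0 of 9, beside 2 of all symbols. DESeq2 called 0 of the 8 for which it gave an adjusted p, which left out Atf3, beside 65 of all symbols. At an unadjusted p below 0.05 in limma there was 1 of 9, Jun, which was lower, beside 4.36% of all symbols that were lower. The unadjusted count depended on single hearts. Without Luc_614 it was 7 of 9, all lower (Fos, Jun, Junb, Egr1, Atf3, Nr4a1 and Zfp36), beside 5.92% of all symbols. Without CTRP9_611 it was 4 of 9, all lower (Jun, Egr1, Atf3 and Nr4a1), beside 3.31%. Without any one of the remaining hearts it was 1 of 9. Luc_614 had the lowest summed level of the AAV-Luc hearts and CTRP9_611 the highest of the AAV-CTRP9 hearts. Leaving out either one therefore moves the differences downward by construction. All 9 fitted log2 differences were below 0, beside 43.0% of all symbols, with a median of -0.36 against 0.03 over all symbols. Since the genes move together over the hearts, the 9 values are not independent.

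Jun had the only groups that did not overlap, 33.3 ± 2.89 CPM in AAV-CTRP9 (SD, n = 4) and 43.1 ± 6.69 CPM in AAV-Luc hearts (SD, n = 3), where 4.54% of all symbols were lower and 4.49% higher without overlap. The log2 difference was -0.36 (SE 0.11, limma adjusted p = 0.431). The exact two-sided permutation p was 0.0286, the smallest that the 35 splits of 7 hearts allow. After removal of the GC and length trend, Luc_614 had rank 4 of the 7 hearts for Jun, counted from the highest. The groups of Jun then overlapped. Without Luc_614 the difference was -0.45 and passed the threshold (limma, adjusted p = 0.0454), where 1.13% of all symbols did. The fibroblast and leukocyte sums were likewise lower without overlap in AAV-CTRP9 hearts and the cardiomyocyte sum higher, and their part in the difference of Jun was not tested.

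The larger differences were the less certain ones. Nr4a1 was at 23.9 ± 20.4 CPM in AAV-CTRP9 and 48.2 ± 31.2 CPM in AAV-Luc hearts, a log2 difference of -1.02 with a 95% interval from -2.45 to 0.41 (limma, adjusted p = 0.664). For Egr1, at 30.1 ± 16.6 against 48.6 ± 25.6 CPM, it was -0.66 (-1.66 to 0.33, limma adjusted p = 0.687). For Atf3 it was -0.62 (-1.64 to 0.40, limma adjusted p = 0.717) and for Fos -0.60 (-1.96 to 0.75, limma adjusted p = 0.810). These intervals include 0 and also reach beyond -1, so a difference of that size could be neither shown nor dismissed with these hearts.

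The 4 steadier genes had narrower intervals that also included 0. The log2 difference was -0.24 for Zfp36 (-0.78 to 0.30), -0.19 for Junb (-0.54 to 0.15), -0.13 for Dusp1 (-0.49 to 0.23) and -0.02 for Ier2 (-0.38 to 0.34). Their limma adjusted p-values lay between 0.751 and 0.981. Single hearts of either group moved the differences. Without Luc_614 the difference of Nr4a1 was -1.82 and without Luc_615 it was -0.57, and for Fos the values were -1.25 and -0.04. Without CTRP9_611 the difference was -1.53 for Nr4a1, -1.06 for Fos, -0.98 for Egr1 and -1.01 for Atf3, and without CTRP9_609 it was -0.21 for Fos. Without Luc_615 the differences of Ier2, Dusp1 and Zfp36 were 0.11, 0.00 and 0.04.

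**Figure D5:**
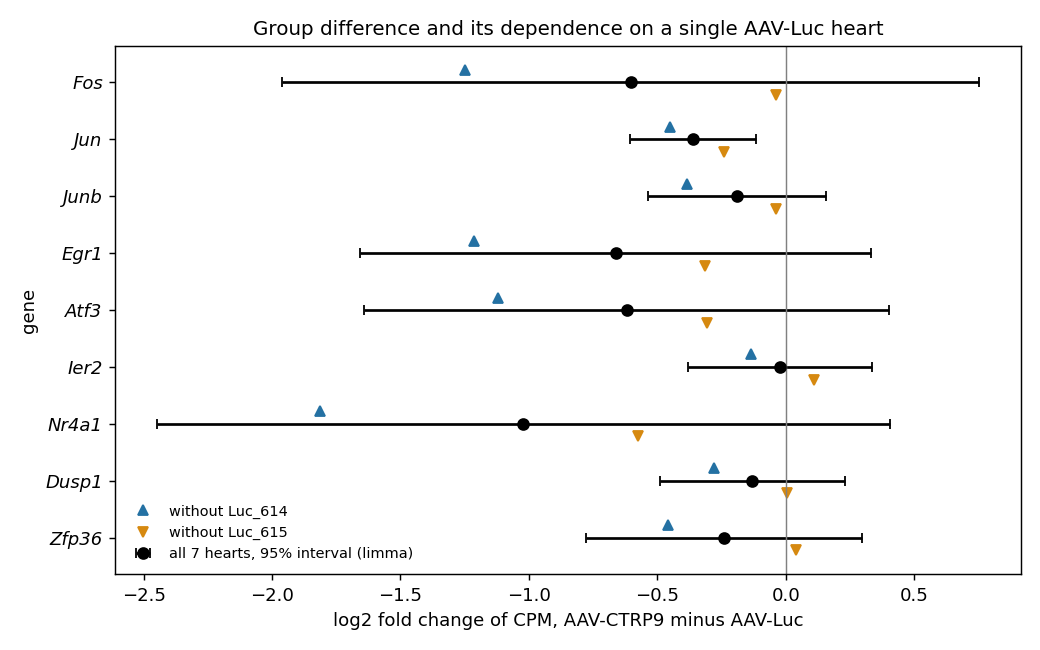
Difference between AAV-CTRP9 and AAV-Luc hearts for each immediate early gene (horizontal axis, log2 fold change; black points with the 95% interval of limma over 7 hearts; blue triangles, without Luc_614; orange triangles, without Luc_615). Only the interval of Jun, from -0.61 to -0.12, excludes 0, before any adjustment, and leaving out the one or the other AAV-Luc heart moves the estimates in opposite directions.

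A wider list of 50 other immediate early genes gave the same result after adjustment. In limma, 0 of its 45 measured genes passed the adjusted threshold, and at an unadjusted p below 0.05 there were 8 that were lower and 0 that were higher, beside 4.36% and 4.30% of all symbols. EdgeR called 0 of them as well, and DESeq2 0 of the 43 for which it gave an adjusted p, beside 2 and 65 of all symbols. In 37 of the 45, or 82.2%, the fitted difference was below 0, beside 43.0% of all symbols. The median was -0.15 against 0.03 over all symbols. Many of these genes move together over the hearts, so their values are not independent. The groups did not overlap for 4 of the 45 genes, or 8.89%, all lower in AAV-CTRP9 hearts, beside 4.54% of all symbols lower and 4.49% higher. The clearest was Cebpd, an acute phase transcription factor, at 8.79, 10.7 and 8.12 CPM in Luc_614, Luc_615 and Luc_624 and at 6.22, 6.87, 6.49 and 6.33 CPM in CTRP9_609, CTRP9_610, CTRP9_611 and CTRP9_620. Its log2 difference was -0.49 (SE 0.12, limma adjusted p = 0.297). The others were the small Maf factor Maff (-0.52), the pseudokinase Trib1 (-0.32) and the Fos relative Fosl1 (-0.28). The r of these 4 with the mean of the 9 genes ran from 0.104 for Trib1 to 0.670 for Maff.

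When Luc_614 was left out, 6 of the 45 passed the threshold, all lower in AAV-CTRP9 hearts, where 1.13% of all symbols passed. They were Fosl2, Nr4a3, Dusp5, Sik1, Errfi1 and Apold1. The largest was Nr4a3, a close relative of Nr4a1, at 7.53 and 4.44 CPM in Luc_615 and Luc_624 and 1.03 to 1.80 CPM in the AAV-CTRP9 hearts. Its log2 difference was -1.96 (limma, adjusted p = 0.00180), against -1.06 (limma, adjusted p = 0.620) with Luc_614, where it was at 0.859 CPM. Fosl2, another Fos relative, had 24.3 and 20.1 CPM in those AAV-Luc hearts, 11.8 CPM in Luc_614 and 10.4 to 13.6 CPM in AAV-CTRP9 hearts. With 2 hearts left in the AAV-Luc group, the comparison leaves out a heart that was low in these genes.

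The regulators that act on immediate early genes did not differ after adjustment. Of 29 genes of this kind, which include Srf, Creb1 and the MAP kinases, all 29 were measured and 0 passed the adjusted threshold in limma, with 3 higher and 4 lower at an unadjusted p below 0.05, beside 4.30% and 4.36% of all symbols. The groups did not overlap for 5 that were lower and 3 that were higher, beside 4.54% and 4.49% of all symbols. Their median log2 difference was 0.03, the same as over all symbols to that precision. Crem, which encodes activators and repressors that bind cAMP response elements, was at 3.24, 2.82 and 3.72 CPM in Luc_614, Luc_615 and Luc_624 and at 2.41, 1.84, 2.32 and 2.01 CPM in CTRP9_609, CTRP9_610, CTRP9_611 and CTRP9_620. Its log2 difference was -0.59 (limma adjusted p = 0.398). Mapk7, which encodes ERK5, was also lower without overlap (-0.27), and Mef2a (0.22) and Atf1 (0.29) were higher without overlap. The remaining genes without overlap were Crtc2, Crtc3 and Map2k5, which were lower, and Rps6ka5, which was higher. Of 16 partners of AP-1 and feedback inhibitors, 14 were measured and 0 passed the adjusted threshold in limma. At an unadjusted p below 0.05 in limma 1 was higher and 1 lower, beside 4.30% and 4.36% of all symbols. The median log2 difference of the 14 was -0.01. DESeq2 and edgeR also called 0 genes of either list, beside 65 and 2 of all symbols.

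In the knock-out experiment the 10 immediate early genes have no values, since that table holds only transcripts with an unadjusted p below 0.05 in the authors' comparison of KO with WT hearts. Of the related lists, 13 genes appear in it. Because the table was selected on this comparison, their differences are descriptions, fitted with edgeR to the raw counts and given without a test. Of the 1230 listed symbols, 61.1% were lower and 38.9% higher in KO hearts. The sizes depend on the scaling. Their median over all listed symbols was -0.23 with the factors worked back from the deposited values, -0.11 with DESeq2 and -0.08 with upper quartile factors, where the last pair of factors was set from the listed genes alone.

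Of the wider immediate early list 5 genes were lower and 1 was higher in KO hearts. Zfp36l1, a relative of Zfp36 that also binds AU-rich elements, was at 1148, 1167 and 1255 normalised counts in the WT hearts and at 955, 807, 742 and 867 in the KO hearts, a log2 difference of -0.50 (SE 0.09) with no overlap. Nfil3, a circadian and immune transcription factor, was at 95.9, 99.99 and 96.1 normalised counts in WT and 66.6, 68.7, 74.3 and 72.9 in KO hearts (-0.46, SE 0.13). Zfp36l2 (-0.25), the matricellular factor Ccn2 (-0.40) and the prostaglandin synthase Ptgs2 (-1.62) were lower with overlapping groups. Ptgs2 rested on 2, 26 and 19 reads in WT and 4, 6, 3 and 8 reads in KO hearts. The higher gene was Mafk, a small Maf factor, at 329, 288 and 319 normalised counts in WT and 391.6, 352, 390 and 381 in KO hearts (0.28, SE 0.08).

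Among the regulators, 5 genes were listed and all 5 were lower in KO hearts. The CREB coactivator Crtc2 was at 405, 380 and 396 normalised counts in WT and at 314, 316, 313 and 324 in KO hearts, a log2 difference of -0.31 (SE 0.07) with no overlap. Its relative Crtc1 was lower by a similar amount (-0.32) with overlapping groups. Mapk3, which encodes ERK1 (-0.19), and Map2k5, the kinase of ERK5 (-0.29), were lower without overlap, and Mef2d (-0.20) was lower with overlap. With DESeq2 and upper quartile factors these differences shrank to -0.07 and -0.04 for Mapk3, -0.17 and -0.14 for Map2k5, -0.09 and -0.06 for Mef2d, -0.21 and -0.18 for Crtc1, and -0.20 and -0.16 for Crtc2. Zfp36l2 of the wider list was at -0.14 and -0.11 with these factors. Mafg, a small Maf factor (0.39), and the phosphatase Dusp3 (0.17) were the listed partners and inhibitors, and both were higher, with 0.29 and 0.32 for Dusp3 under the other factors.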

How the data were processed

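The authors sequenced whole hearts with single-end reads of 50 bases and aligned them to mm10 with Bowtie2. The libraries were strand-specific, and the sources used here do not state whether the counting used strand. The vector table holds log2 CPM per Ensembl transcript as deposited by the authors (25990 rows, 275 without a symbol). Whole reads were recovered from it for 100% of values within 1e-06, with a prior count of 1. The knock-out table holds raw counts deposited by the authors, and all its 2372 rows have a deposited p-value below 0.05. The deposited mean signal (normalised counts) and the authors' RPKM sums served only to work back size factors and library totals. Its columns name a group but not an animal. The authors' columns of fold changes and further test results hold their own comparisons and were not used, nor were 14 other columns of per-sample values.

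For each symbol the row with the highest mean was kept. AAV-CTRP9 was compared with AAV-Luc by limma 3.58.1 with a variance trend in R 4.3.3, on the deposited log2 CPM of all 13219 symbols, with Benjamini-Hochberg adjustment over all of them (threshold 0.05). Library totals of 23626917 to 30262264 reads give the counting intervals printed, which cover counting error only. Correlations used exact permutation tests (SciPy 1.17.1). Alternatives were edgeR 4.0.16 and DESeq2 1.42.0 on recovered reads, other scalings and filters, a GC and length correction, and leaving out each heart. The limma and correlation steps were tested on simulated data. The reads simulated for limma had a fixed spread between hearts, smaller than that of Nr4a1, Fos, Egr1 and Atf3. The recovery of differences in genes as variable as these was therefore not tested. Gene positions are from GENCODE vM21 (GRCm38). Hearts are separate mice, 1 library each.

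The genes described, the lists and the tests were chosen with earlier results of these data known. Named genes are the 10 immediate early genes, C1qtnf9, up to 4 genes of each other list with the smallest p among those whose groups did not overlap, and the 10 symbols of at least 1 CPM closest to the mean of the standardised genes. The genes named as called without Luc_614, the related genes in the knock-out table, the other regulators without overlap, Btg2, Sik1 and Plk2, Ier5l and Gadd45a were singled out after their values were seen. In the wider lists, Cyr61, Ctgf, Mkl1 and Mkl2 were matched as Ccn1, Ccn2, Mrtfa and Mrtfb.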

Additional observations from a re-analysis of the deposited data

Results flagged for a closer look

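Atf3 in the AAV-CTRP9 hearts was set apart by a single heart. CTRP9_611 was at 3.37 CPM and the other 3 hearts at 0.954 to 1.27 CPM, so that the gap to the nearest heart was 0.869 of the whole range, above Dixon's 95% critical value for 4 samples. The AAV-Luc hearts Luc_615 and Luc_624 were at similar levels of 3.53 and 2.96 CPM. Of 27 genes examined in this way Atf3 was the one past the limit, and chance alone puts about 1 in 20 groups past it.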

How the results depend on the processing

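The common movement of the genes was the steadiest result. The median r of pairs lay between 0.778 and 0.923 when each heart was left out in turn, and between 0.786 and 0.866 under the other alternatives, which include removal of the GC trend and, chosen after seeing the data, the restriction to genes of at least 10 CPM (0.863). The number of all symbols past the adjusted threshold was 2 in limma. It was 1 with scaling to library totals only, 0 without the variance trend, 0 with the rows of a symbol summed, 8 with the GC and length trend removed and 65 with DESeq2, and 0 to 150 when a heart was left out, with 150 without Luc_614 and 1 without Luc_615. The number of the 9 genes called was 0 to 1 when a heart was left out (Jun, without Luc_614) and that of the other immediate early genes 0 to 6. Of 135 alternative values for the fold changes of the 9 genes, 130 kept their direction and their side of the threshold and 4 changed sign, all when a heart was left out. Over the hearts left out, the log2 difference ranged from -0.14 to 0.11 for Ier2, above 0 without Luc_615 (0.11) and without CTRP9_609 (0.10). It ranged from -0.28 to 0.0041 for Dusp1 and from -0.46 to 0.038 for Zfp36, with both highest values without Luc_615. The cause was not tested. The knock-out table was selected on its own comparison, so its values are given as descriptions and not as a test. None of 155 alternative values of the related genes changed sign, their sizes depended on the scaling, and no alternative gives a value for the 10 genes there. No paired analysis was possible because hearts of different mice are compared and no source pairs them. Numbers that recur in the column names of KO and WT hearts belong to different animals. Depth limits Fos and Atf3, which rested on 20 to 188 and 27 to 99 reads a heart. With 3 and 4 hearts, differences of the most variable genes are bounded only loosely.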

Other observations

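Some immediate early genes moved against the others. In the wider list 32 of 45 genes had a positive r with the mean of the 9 genes, or 71.1% beside 48.1% of all symbols, and 13 did not. The lowest was Plk2, a polo-like kinase, with r = -0.85. Plk2 was at 12.8, 8.31 and 8.20 CPM in Luc_614, Luc_615 and Luc_624, and at 12.9, 10.3, 10.6 and 10.99 CPM in CTRP9_609, CTRP9_610, CTRP9_611 and CTRP9_620. Ier5l (r = -0.83) ranged from 4.35 CPM in Luc_615 to 6.61 CPM in Luc_614. The stress gene Gadd45a (r = -0.83) ranged from 4.25 CPM in Luc_624 to 6.38 CPM in Luc_614. All 3 were highest or near their highest in Luc_614. Without Luc_614 the r was -0.83 for Plk2, -0.94 for Ier5l and -0.80 for Gadd45a, and 32 of the 45 genes again had a positive r, beside 45.2% of all symbols. These genes were singled out after their values were seen, the correlations rest on 7 hearts, and no test was made.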
